A study of Mus musculus with 25 samples.

Results

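The matrix metalloproteases (MMPs), the ADAM and ADAMTS proteases and their tissue inhibitors, the TIMPs, were followed through all 6 groups of a series on mouse podocytes, the cells that cover the glomerular capillaries. Members were all genes whose symbol is Mmp, Adam, Adamts or Timp followed by a number, with at most 1 letter after it. Each was represented by the single-symbol probe set with the highest mean over the 25 arrays. Of 17097 genes with such a probe set, 61 were members: 18 MMP, 26 ADAM, 14 ADAMTS and 3 TIMP genes. Another 19 genes with such symbols, among them Mmp15 and Timp4, have no probe set named in the annotation used and were not analysed here.

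Every mouse carried the Col1a1-eGFPL10a transgene, a fusion of green fluorescent protein to ribosomal protein L10a placed behind the promoter and enhancer of collagen 1α1. Tagged ribosomes were pulled out of kidney with their mRNA (translating ribosome affinity purification, TRAP). This polysomal RNA was amplified once for hybridization to Affymetrix arrays. Knock-in mice (KI), from crosses with Actn4+/tm1.1Plk mice that carry a targeted allele of the gene for the actin crosslinker alpha-actinin-4, were set against wild-type mice (WT). The strain is given as C57/129sv and the sex as unknown. KI arrays numbered 4 at 2 weeks, 4 at 5 weeks and 4 at 44 weeks, and WT arrays 4, 5 and 4. The labels also give the ages as postnatal days 14, 35 and 300. The labels do not say whether KI mice had 1 or both alleles altered. The labels do not say that arrays came from separate animals, so p-values measure only the spread between these samples, which may be technical.

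These proteases share a zinc-dependent catalytic domain, although some ADAMs lack the residues that hold the zinc. MMPs cut collagens, laminins and other matrix proteins, membrane-bound ADAMs release the outer parts of receptors, adhesion proteins and growth factor precursors, and secreted ADAMTS enzymes cut proteoglycans and other matrix components. TIMPs block them with overlapping preferences, and in the glomerulus the balance between both sides bears on the turnover of the basement membrane and mesangial matrix. The collagen promoter that drives the tag is not a podocyte-only promoter, since type I collagen is made above all by fibroblasts. In bulk RNA, fewer cells of a type and less RNA per cell cannot be told apart.

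The 7 measured podocyte markers were bright in every group, with array means of their log2 values between 11.51 and 12.21, so the labelled cell type carried its defining transcripts. Markers of other cells were present too. The mean of 4 fibroblast markers was 7.98, 7.62 and 6.17 in KI at 2, 5 and 44 weeks and 8.42, 7.16 and 6.24 in WT. Col1a1 itself, whose promoter drives the tag, fell between 2 and 44 weeks by 4.20 ± 0.41 in KI (adjusted p = 6.19e-07, limma) and fell by 4.66 ± 0.41 in WT (adjusted p = 8.38e-08) on the log2 scale. Of the 5 WT arrays at 5 weeks, numbers 7, 8 and 9 stood apart. Their fibroblast means were 6.71, 6.42 and 6.79 against 8.04 and 7.84 on arrays 6 and 10, and their mesangium and smooth muscle means were 6.60, 6.97 and 7.14 against 7.93 and 7.86. Endothelial and leukocyte markers differed among these 5 arrays in the same direction. Proximal tubule markers did not split that way, with 8.76, 10.07 and 9.17 on arrays 7, 8 and 9 and 10.22 and 9.88 on arrays 6 and 10. Parietal epithelium markers ran the other way, with 8.73, 8.52 and 8.80 against 8.46 and 7.93. Results that rest on WT at 5 weeks were therefore also computed without arrays 7, 8 and 9. Actn4 has no named probe set, so genotype labels were not checked on the targeted gene. Y-linked genes were high on 1, 3 and 3 KI arrays and on 4, 2 and 1 WT arrays at 2, 5 and 44 weeks. The groups were thus not balanced in Y-linked signal, and comparisons of ages and genotypes are partly mixed with sex.

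**Figure D1:**
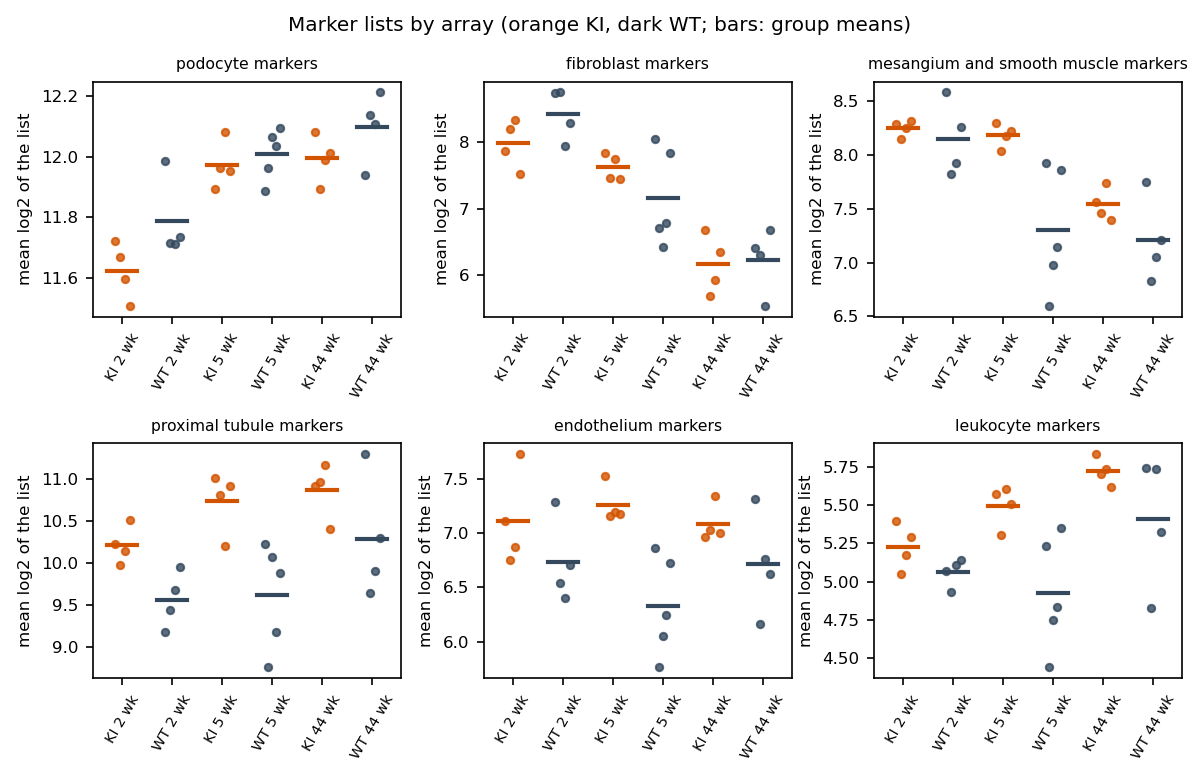
Mean log2 value of 6 marker lists (vertical axes) on each of the 25 arrays, by group, with KI in orange left of WT in dark grey at each age and bars at group means. The podocyte list lies between 11.51 and 12.21 on all arrays, while within each genotype the group means of the fibroblast and mesangial lists are lowest at 44 weeks. In the fibroblast, mesangial, endothelial and leukocyte lists WT at 5 weeks splits into 2 high and 3 low arrays. The podocyte and proximal tubule lists do not split that way.

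Of the 61 members, 30 had a mean signal above the limit of 4.603 log2 units, below which the dimmest 30% of genes were left out of testing. They were 8 MMP, 10 ADAM, 9 ADAMTS and all 3 TIMP genes. The limit was set on the mean over all arrays, and the counts of calls cover these 30 genes, not all members. The other 31 ranged from 2.59 to 4.53. Just inside the limit lay Adamts16 at 4.87, Mmp9 at 4.82 and Adam4 at 4.80, and just outside it Mmp7 at 4.53, Adam33 at 4.47 and Adam19 at 4.42. All 4 collagenases (Mmp1a, Mmp1b, Mmp8 and Mmp13), the macrophage elastase Mmp12 and the procollagen-processing Adamts3 were among the dim ones. Of 14 ADAMs grouped as testis-type or other, only Adam4 passed, whereas 6 of 9 widely expressed ADAMs and 5 of 7 proteoglycan-cutting ADAMTS genes did. The brightest probe sets were those of Mmp23 with a mean of 11.47, Timp2 with 11.19, Timp3 with 11.13, Adam10 with 10.02, Adam9 with 9.80 and Mmp24 with 9.61. Probe sets differ in how well they bind their target, so these signals do not rank the genes by abundance. The file holds no detection calls, and a dim signal does not show that a gene was absent.

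**Figure D2:**
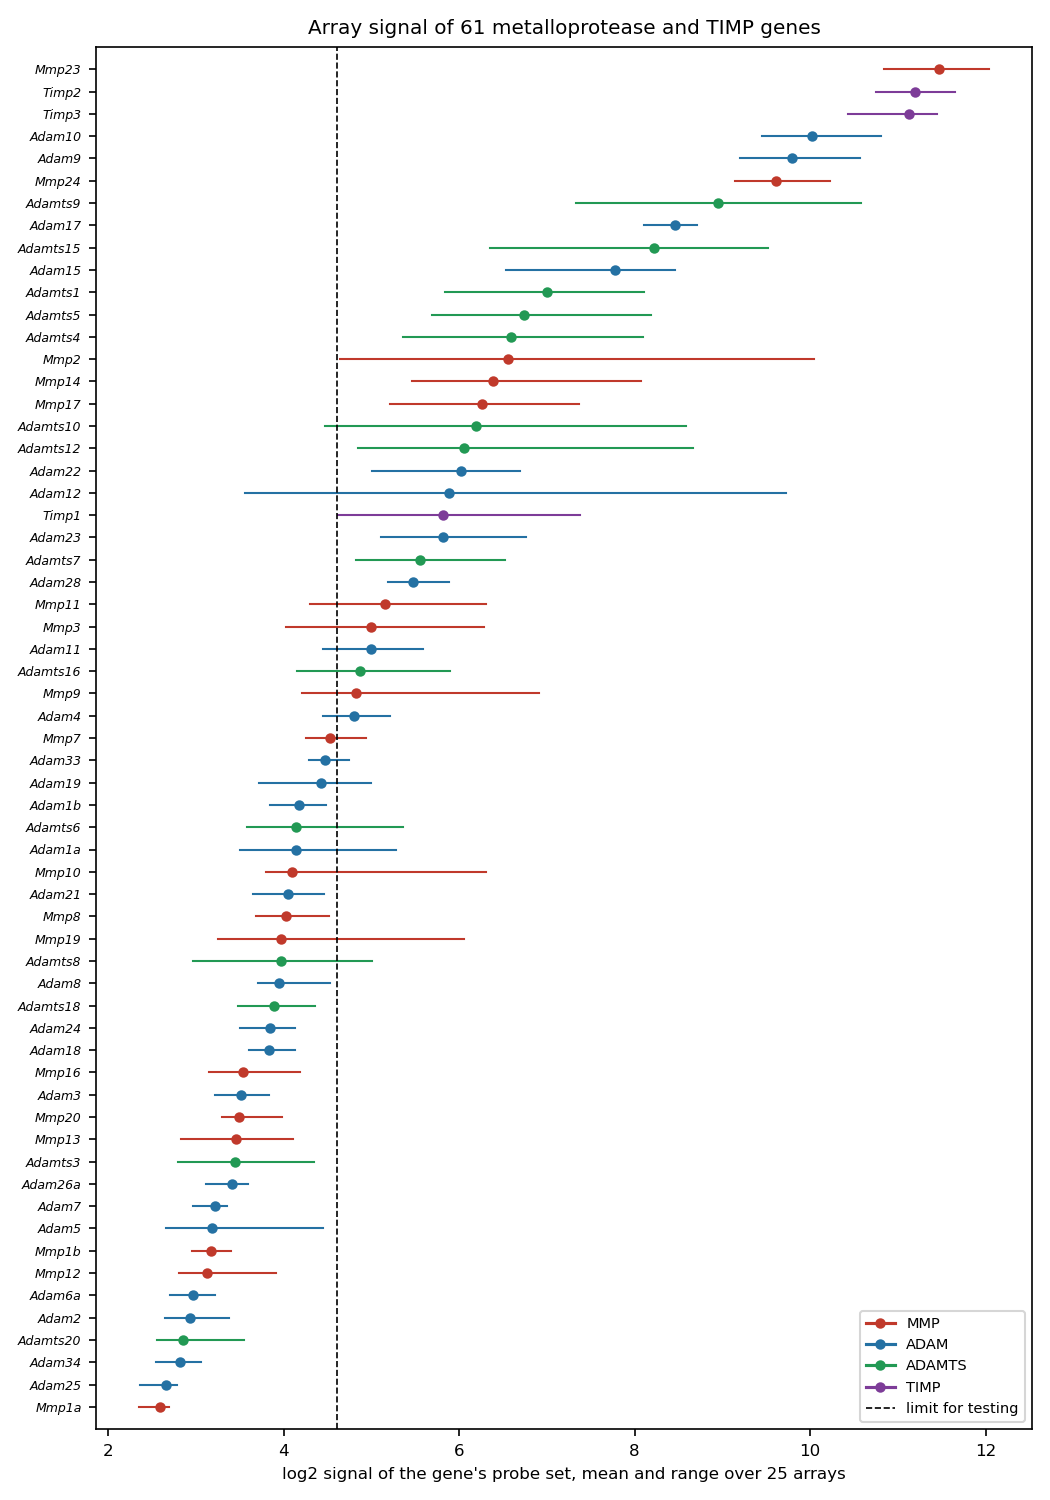
Log2 signal (horizontal axis) of the probe set of each of the 61 members, as the mean (dot) and the range (line) over 25 arrays, coloured by family. The dashed line is the limit of 4.603 for testing, which 30 members passed, and Adam12, Mmp2 and Adamts10 span the widest ranges among them.

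With age, the gelatinase Mmp2, the sheddases Adam10, Adam12 and Adam15 and most ADAMTS genes went down in both genotypes, while Adam9 and the inhibitor Timp3 went up. Between 2 and 44 weeks, 12 of the 30 tested members fell and 3 rose in KI, and 14 fell and 2 rose in WT (limma, adjusted p under 0.05). Over all 11968 genes tested, 15.9% fell and 14.3% rose in KI, and 18% fell and 13.6% rose in WT. The median log2 change of the members was -0.38 in KI and -0.60 in WT, against -0.01 and -0.03 over all genes. In both genotypes 11 genes fell, which is 91.7% of the 12 in KI and 78.6% of the 14 in WT: Mmp2, Adam10, Adam12, Adam15, Adamts1, Adamts5, Adamts7, Adamts9, Adamts10, Adamts12 and Adamts15. With the Y-linked signal of each array as a covariate, 11 fell and 3 rose in KI and 13 fell and 2 rose in WT. Over all genes 3545 and 3417 of 11968 passed in that fit. The WT call of Adam15 was lost with that covariate. Arrays of the 2 ages did not overlap for 15 members in KI, against 34.8% of all genes, and for 14 members in WT, against 27.6%. In none of the 30 members did the change between 2 and 44 weeks differ between genotypes at the same threshold (limma interaction, lowest adjusted p = 1). At an unadjusted p under 0.05 there was 1, the gelatinase Mmp9.

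**Figure D3:**
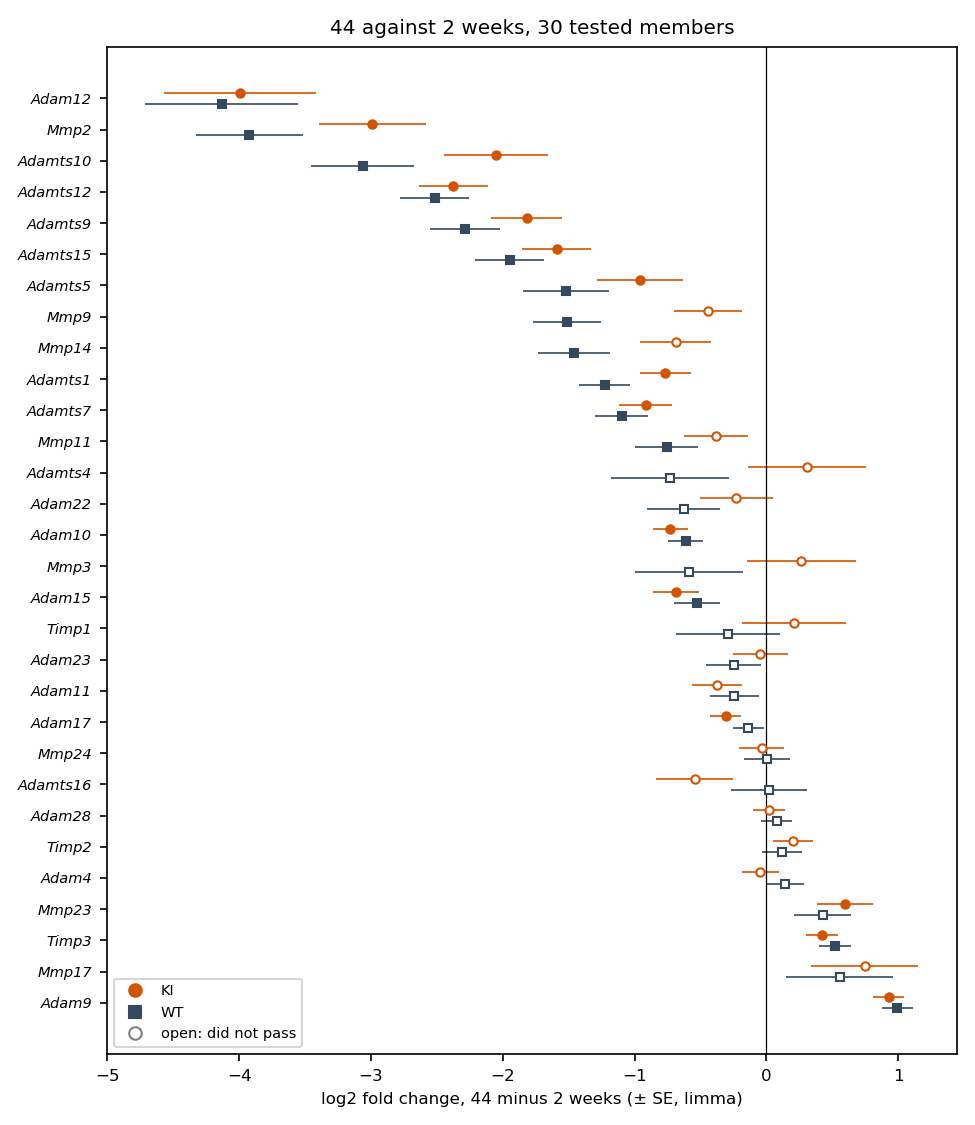
Log2 fold change between 44 and 2 weeks (horizontal axis, 44 minus 2 weeks, ± SE from limma) of the 30 tested members, with KI as orange circles above WT as dark squares. Filled symbols passed the test. The largest falls are those of Adam12 and Mmp2, and Adam9 and Timp3 rose in both genotypes.

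Among the MMPs, Mmp2 fell most. It encodes gelatinase A, which cuts denatured collagens and type IV collagen and is activated at the cell surface by Mmp14 together with Timp2. In KI its log2 values were 8.22, 8.48, 8.31 and 7.60 (2 weeks), 6.51, 5.49, 6.74 and 7.22 (5 weeks) and 5.19, 5.01, 5.00 and 5.45 (44 weeks). The WT arrays read 8.68, 10.04, 8.19 and 8.31 (2 weeks), 7.35, 5.75, 5.24, 5.57 and 6.18 (5 weeks) and 4.65, 4.72, 5.14 and 5.02 (44 weeks). Both genotypes were highest at 2 weeks and lowest at 44 weeks, with no overlap between those ages. The difference between 44 and 2 weeks was -2.99 ± 0.41 in KI (adjusted p = 1.87e-05, limma) and -3.92 ± 0.41 in WT (adjusted p = 6.25e-07), or 0.126 and 0.066 of the earlier level. Part of it came by 5 weeks, with -1.66 ± 0.41 in KI and -2.79 ± 0.39 in WT, or in WT -2.04 ± 0.46 without WT arrays 7, 8 and 9. The other gelatinase, Mmp9, had values of 5.19, 5.15, 5.31 and 4.59 (2 weeks), 4.69, 4.42, 4.39 and 5.06 (5 weeks) and 4.78, 4.67, 4.39 and 4.62 (44 weeks) in KI. In WT it read 6.91, 5.85, 4.89 and 5.74 (2 weeks), 4.61, 4.49, 4.55, 4.38 and 4.52 (5 weeks) and 4.27, 4.46, 4.42 and 4.21 (44 weeks). WT at 2 weeks was the one group with values above 5.31, although 1 of its arrays lay within the KI range, and most other arrays lay close to the limit for testing. Between 2 and 44 weeks its KI difference of -0.45 did not pass, and in WT Mmp9 fell by 1.51 on the log2 scale (SE 0.26, adjusted p = 0.000154, limma). The test of that gap gave 1.07 ± 0.37 with an adjusted p of 1.

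Mmp14, the membrane-type protease that activates proMmp2, read 6.55, 6.90, 7.17 and 6.05 (2 weeks), 6.78, 6.28, 6.36 and 6.19 (5 weeks) and 6.28, 5.96, 5.77 and 5.91 (44 weeks) in KI. WT values were 8.07, 7.15, 6.73 and 7.37 (2 weeks), 6.47, 5.94, 5.93, 5.61 and 6.68 (5 weeks) and 5.99, 5.76, 5.46 and 6.27 (44 weeks). The 2-week WT arrays lay above all WT arrays of the later ages, whereas KI arrays of different ages overlapped. Its change from 2 to 44 weeks was -0.69 ± 0.27 in KI, which did not pass (adjusted p = 0.0582, limma), and -1.46 ± 0.27 in WT (adjusted p = 0.000327). Mmp11, a stromelysin chosen here after its values were seen, had -0.38 in KI, not passing, and fell by 0.76 on the log2 scale in WT. Matrilysin, Mmp7, lay under the limit and was not tested. Its KI values were 4.48, 4.28, 4.61 and 4.48 (2 weeks), 4.45, 4.65, 4.65 and 4.56 (5 weeks) and 4.51, 4.51, 4.61 and 4.49 (44 weeks), and its WT values were 4.50, 4.37, 4.25 and 4.41 (2 weeks), 4.92, 4.51, 4.64, 4.33 and 4.94 (5 weeks) and 4.52, 4.52, 4.35 and 4.62 (44 weeks), so all groups overlapped.

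The membrane-anchored Mmp23, which lacks the usual cysteine switch of MMP propeptides, was the MMP that rose. Its KI values were 11.31, 11.22, 11.00 and 10.87 (2 weeks), 11.54, 11.58, 11.97 and 11.47 (5 weeks) and 11.97, 11.30, 11.57 and 11.93 (44 weeks). WT arrays gave 11.97, 11.09, 11.25 and 11.36 (2 weeks), 10.84, 10.89, 11.21, 11.28 and 11.86 (5 weeks) and 11.58, 12.01, 11.73 and 12.04 (44 weeks). KI rose by 0.59 ± 0.21 between 2 and 44 weeks (adjusted p = 0.0383, limma) although 1 array at 44 weeks lay within the 2-week range. In WT the same difference, 0.43, did not pass, but 44 weeks exceeded 5 weeks by 0.62 ± 0.20 (adjusted p = 0.0335), a call that 10 of 36 alternatives lost. The later WT difference was 0.49 without WT arrays 7, 8 and 9 and did not pass. Mmp24, a membrane-type MMP known best from neurons, was at 9.50 ± 0.18, 9.93 ± 0.22 and 9.47 ± 0.33 in KI at 2, 5 and 44 weeks and at 9.58 ± 0.24, 9.57 ± 0.28 and 9.59 ± 0.19 in WT (SD), and passed in no comparison.

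Of the 9 tested ADAMTS genes, 7 fell in both genotypes between 2 and 44 weeks, all but Adamts4 and Adamts16. Adamts9, which cuts versican and aggrecan, had KI values of 9.88, 10.39, 10.02 and 10.15 (2 weeks), 8.60, 8.04, 8.54 and 9.17 (5 weeks) and 8.16, 8.51, 8.16 and 8.33 (44 weeks). In WT they were 10.57, 10.58, 9.75 and 9.93 (2 weeks), 9.45, 8.95, 8.22, 8.33 and 8.37 (5 weeks) and 8.08, 8.12, 8.15 and 7.33 (44 weeks). At 2 weeks all 8 arrays read 9.75 or more, and later all arrays except WT array 6, at 9.45, read 9.17 or less. Adamts9 fell between 2 and 44 weeks by 1.82 in KI (SE 0.27, adjusted p = 4.22e-05, limma) and fell by 2.29 in WT (SE 0.27, adjusted p = 2.3e-06), and most of this came before 5 weeks, where the difference was -1.52 in KI and -1.54 in WT, or -1.30 in WT without WT arrays 7, 8 and 9. A dimmer probe set of Adamts9 gave -0.56 in KI and -0.35 in WT, neither passing.

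Adamts12, which with Adamts7 cuts cartilage oligomeric matrix protein, had KI values of 7.39, 7.35, 7.30 and 7.18 (2 weeks), 5.77, 5.54, 5.88 and 5.95 (5 weeks) and 4.87, 4.84, 4.97 and 5.04 (44 weeks). WT values were 7.74, 8.66, 6.95 and 7.30 (2 weeks), 5.93, 5.59, 5.19, 5.23 and 6.22 (5 weeks) and 4.90, 5.00, 5.09 and 5.60 (44 weeks). In KI the 3 ages did not overlap. From 2 to 44 weeks it fell by 2.38 in KI (SE 0.26, adjusted p = 2.32e-06, limma) and fell by 2.52 in WT (SE 0.26, adjusted p = 6.39e-07). Adamts7 fell too, with -0.92 in KI and -1.10 in WT. The fibrillin-binding Adamts10 read 7.63, 7.68, 6.90 and 6.88 (2 weeks), 6.08, 5.95, 6.61 and 6.13 (5 weeks) and 5.10, 4.72, 4.89 and 6.18 (44 weeks) in KI. Its WT values were 8.59, 8.46, 7.30 and 7.46 (2 weeks), 6.73, 6.02, 4.48, 5.86 and 5.65 (5 weeks) and 4.57, 4.66, 5.48 and 4.85 (44 weeks). It fell by 2.05 in KI (SE 0.39, adjusted p = 0.000537) and fell by 3.06 in WT (SE 0.39, adjusted p = 6.38e-06), while its dimmer probe set gave -0.02 in KI and -0.38 in WT, neither passing.

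Adamts1, a proteoglycanase that also cuts thrombospondins, had its lowest group means at 5 weeks rather than at 44, in WT only with arrays 7, 8 and 9 included. In KI it read 7.91, 7.67, 7.87 and 7.90 (2 weeks), 6.81, 6.45, 6.29 and 6.62 (5 weeks) and 7.17, 6.85, 6.97 and 7.28 (44 weeks). WT gave 7.31, 8.10, 7.94 and 7.76 (2 weeks), 6.76, 6.58, 5.84, 5.93 and 6.70 (5 weeks) and 6.43, 6.55, 6.70 and 6.53 (44 weeks). By 5 weeks it fell by 1.30 in KI (SE 0.19, adjusted p = 0.000205, limma) and fell by 1.42 in WT (SE 0.18, adjusted p = 1.85e-05). The WT difference without arrays 7, 8 and 9 was -1.05 between 5 and 2 weeks and -0.18 between 44 and 5 weeks, against 0.19 with them. Between 5 and 44 weeks KI changed by 0.53 ± 0.19, which did not pass (adjusted p = 0.0612) although all 4 later arrays lay above the earlier ones. Adamts5, the main aggrecanase of mouse cartilage, read 7.53, 7.34, 7.34 and 6.83 (2 weeks), 7.03, 6.29, 6.30 and 7.13 (5 weeks) and 6.08, 6.36, 6.21 and 6.56 (44 weeks) in KI. Its WT values were 8.05, 8.19, 7.18 and 7.32 (2 weeks), 7.55, 5.70, 5.69, 6.42 and 6.68 (5 weeks) and 6.36, 6.16, 6.43 and 5.71 (44 weeks). It fell between 2 and 44 weeks by 0.96 in KI (adjusted p = 0.029) and fell by 1.52 in WT (adjusted p = 0.00118). Adamts15, which also cuts versican, fell too, with -1.59 in KI and -1.95 in WT. Between 5 and 44 weeks Adamts16 fell by 1.02 ± 0.29 in KI (adjusted p = 0.0202), and its WT difference of -0.13 did not pass. Adamts15 fell in WT over that interval (-1.06 ± 0.25, adjusted p = 0.00584). Without WT arrays 7, 8 and 9 the WT differences were -0.81 for Adamts16, not passing (adjusted p = 0.0933), and -1.19 for Adamts15 (adjusted p = 0.0368). The test of a difference between genotypes over this interval passed for no member (lowest adjusted p = 0.0971).

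The starts of 3 of these falling genes and of the rising Timp3 are printed as examples of proximal promoters. The RefSeq table (build GRCm38.p6) holds windows of 250 bases before to 50 after the start for 16 of the 30 tested members, 17 windows in all. Capitals mark matches on either strand to TATAAA (the TATA box), TGANTCA (bound by AP-1, a regulator of several MMP genes) or GGGCGG (the GC box), read as CCGCCC on the other strand.
Adamts1: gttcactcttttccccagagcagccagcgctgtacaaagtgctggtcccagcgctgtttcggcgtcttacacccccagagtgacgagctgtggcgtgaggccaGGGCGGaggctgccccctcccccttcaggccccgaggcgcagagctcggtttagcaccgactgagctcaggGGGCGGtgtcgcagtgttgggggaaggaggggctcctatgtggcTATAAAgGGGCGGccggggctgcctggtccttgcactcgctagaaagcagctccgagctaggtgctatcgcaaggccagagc
Adamts9: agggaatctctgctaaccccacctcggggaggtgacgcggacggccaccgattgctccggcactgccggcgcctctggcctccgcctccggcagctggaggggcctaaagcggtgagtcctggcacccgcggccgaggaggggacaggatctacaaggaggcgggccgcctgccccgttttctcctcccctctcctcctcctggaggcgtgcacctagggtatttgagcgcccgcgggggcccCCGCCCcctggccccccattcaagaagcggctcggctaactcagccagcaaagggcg
Adamts12: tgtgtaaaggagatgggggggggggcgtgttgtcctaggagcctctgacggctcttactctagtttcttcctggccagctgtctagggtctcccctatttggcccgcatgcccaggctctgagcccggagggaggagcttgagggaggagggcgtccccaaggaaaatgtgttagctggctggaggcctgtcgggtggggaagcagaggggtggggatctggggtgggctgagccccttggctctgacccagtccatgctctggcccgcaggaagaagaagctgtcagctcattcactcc
Timp3: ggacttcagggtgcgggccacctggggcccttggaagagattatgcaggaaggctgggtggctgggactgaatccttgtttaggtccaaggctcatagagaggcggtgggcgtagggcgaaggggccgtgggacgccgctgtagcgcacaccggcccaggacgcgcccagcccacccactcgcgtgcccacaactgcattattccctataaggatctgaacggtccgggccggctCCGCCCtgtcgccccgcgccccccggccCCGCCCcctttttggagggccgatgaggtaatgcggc
The windows are chr16:85803064-85803363 (minus strand) for Adamts1, chr6:92943485-92943784 (minus strand) for Adamts9, chr15:11064523-11064822 (plus strand) for Adamts12 and chr10:86300162-86300461 (plus strand) for Timp3, each written 5′ to 3′ along the gene. Adamts1 holds 1 TATA box and 3 GC boxes, Adamts9 has 1 GC box, Timp3 has 2, and Adamts12 has no match in this window. GC boxes were found in 12 of the 17 member windows and in 35.7% of 32841 windows in the table. TATA boxes were in 2, those of Adamts1 and Mmp3, against 13.6% of all windows, and an AP-1 match was in 1, that of Mmp3, against 7.81%. Median GC content was 66.3% in the member windows and 52.7% over all windows. The member windows are those of tested genes, while all windows were not limited to tested genes. Matches describe letters in these windows and say nothing of binding.

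Of the membrane-bound ADAMs, Adam12 moved furthest of all members. It is a sheddase of growth factor precursors and is typical of mesenchymal cells. Its KI values were 7.96, 8.21, 7.78 and 7.10 (2 weeks), 5.93, 5.79, 5.71 and 6.00 (5 weeks) and 4.04, 3.70, 3.56 and 3.77 (44 weeks). The WT values were 8.98, 9.72, 7.65 and 7.61 (2 weeks), 7.33, 3.97, 4.11, 4.77 and 6.00 (5 weeks) and 3.92, 3.58, 5.62 and 4.31 (44 weeks). In KI no 2 ages overlapped, and in WT the arrays at 2 weeks lay above all others. The difference between 44 and 2 weeks was -4.00 ± 0.58 in KI (adjusted p = 3.57e-05, limma) and -4.13 ± 0.58 in WT (adjusted p = 1.62e-05). Its group means at 44 weeks, 3.77 in KI and 4.35 in WT, lie below the limit for testing, so the fall ends in the dim range of the array, where differences are compressed. Within WT at 5 weeks, Adam12 was 7.33 and 6.00 on arrays 6 and 10 and 3.97, 4.11 and 4.77 on arrays 7, 8 and 9, the same split as in the fibroblast markers.

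Adam10 is the main sheddase of Notch receptors and of several cadherins. In KI it read 10.63, 10.45, 10.35 and 10.55 (2 weeks), 9.58, 9.64, 9.46 and 9.73 (5 weeks) and 9.53, 9.95, 9.79 and 9.80 (44 weeks). In WT it read 10.08, 10.80, 10.69 and 10.36 (2 weeks), 10.18, 9.98, 9.95, 9.85 and 9.74 (5 weeks) and 9.80, 9.82, 9.95 and 9.89 (44 weeks). KI arrays at 2 weeks lay above all later KI arrays. The difference between 44 and 2 weeks was -0.73 ± 0.13 in KI (adjusted p = 0.000337, limma) and -0.61 ± 0.13 in WT (adjusted p = 0.00128). A dimmer probe set of Adam10 ran the other way, at 0.20 in both genotypes, without passing, and another gave -0.93 in KI, which passed (adjusted p = 0.0342), and -0.23 in WT, which did not. Adam17 releases tumour necrosis factor and ligands of the epidermal growth factor receptor. KI arrays gave 8.42, 8.62, 8.71 and 8.53 (2 weeks), 8.18, 8.11, 8.41 and 8.59 (5 weeks) and 8.15, 8.23, 8.15 and 8.53 (44 weeks). WT arrays gave 8.66, 8.70, 8.49 and 8.37 (2 weeks), 8.55, 8.60, 8.64, 8.66 and 8.57 (5 weeks) and 8.19, 8.48, 8.48 and 8.52 (44 weeks). Ages overlapped in KI, and in WT the arrays at 44 weeks lay below those at 5 weeks without passing. Its 1 call, -0.31 ± 0.12 in KI between 44 and 2 weeks (adjusted p = 0.0495), held in 12 of 36 alternatives.

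Adam9 rose late. This widely expressed ADAM, known to shed growth factor precursors, had KI values of 9.30, 9.49, 9.52 and 9.20 (2 weeks), 9.33, 9.38, 9.34 and 9.64 (5 weeks) and 10.24, 10.25, 10.41 and 10.33 (44 weeks). Its WT values were 9.76, 9.68, 9.35 and 9.28 (2 weeks), 9.68, 9.84, 9.78, 9.74 and 9.40 (5 weeks) and 10.40, 10.57, 10.55 and 10.51 (44 weeks). In both genotypes every array at 44 weeks lay above every earlier array. Between 5 and 44 weeks Adam9 rose by 0.88 ± 0.12 in KI (adjusted p = 7.63e-05, limma) and by 0.82 ± 0.11 in WT (adjusted p = 6.14e-05). Between 2 and 5 weeks its differences, 0.04 in KI and 0.17 in WT, did not pass. Adam9 has 1 probe set, and all 4 calls of its rise held under each of 36 alternatives. Adam23, an ADAM without an active zinc site that is best known from brain, fell by 0.66 in WT between 5 and 44 weeks (adjusted p = 0.0247). That call was lost in 8 of 35 alternatives, and a dimmer probe set gave -0.13 without passing (adjusted p = 0.547, limma). In KI the Adam23 difference of -0.47 over that interval did not pass.

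Timp3, the inhibitor that binds to the matrix and acts on Adam17 and ADAMTS enzymes as well as MMPs, rose in both genotypes. KI arrays read 10.77, 10.91, 10.84 and 11.01 (2 weeks), 11.03, 11.19, 11.01 and 11.05 (5 weeks) and 11.35, 11.26, 11.41 and 11.18 (44 weeks). WT arrays read 11.05, 11.07, 10.72 and 10.43 (2 weeks), 11.40, 11.22, 11.44, 11.43 and 11.03 (5 weeks) and 11.40, 11.28, 11.32 and 11.33 (44 weeks). All arrays at 44 weeks lay above all arrays of the same genotype at 2 weeks. The difference was 0.42 ± 0.12 in KI (adjusted p = 0.0123, limma) and 0.52 ± 0.12 in WT (adjusted p = 0.00256). In WT it was there by 5 weeks, at 0.49 ± 0.12 (adjusted p = 0.00272), and without WT arrays 7, 8 and 9 it was 0.40 and did not pass (adjusted p = 0.102). Timp2, which serves both as inhibitor and as the adaptor in Mmp2 activation, had KI values of 11.08, 11.31, 11.03 and 10.89 (2 weeks), 11.09, 10.99, 11.32 and 11.05 (5 weeks) and 11.25, 11.05, 11.23 and 11.58 (44 weeks). WT values were 11.53, 11.27, 11.06 and 11.20 (2 weeks), 10.75, 11.08, 11.03, 11.16 and 11.37 (5 weeks) and 11.03, 11.65, 11.34 and 11.51 (44 weeks). All groups overlapped and no comparison passed for this probe set.

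**Figure D4:**
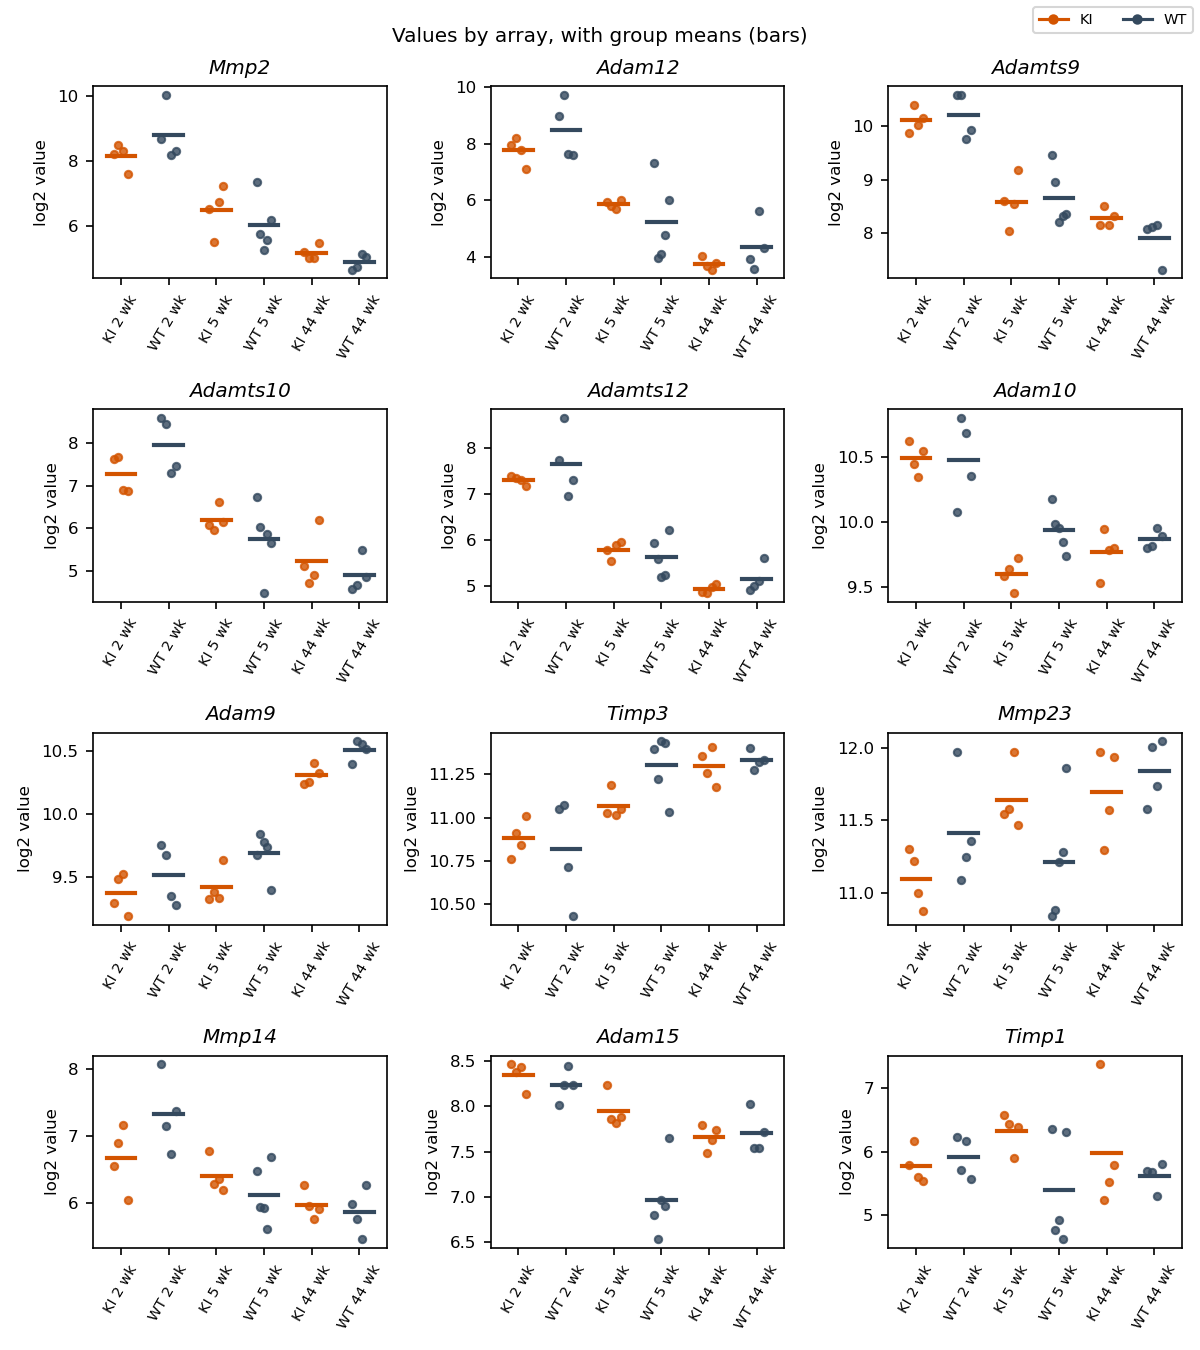
Log2 values (vertical axes) of 12 members on every array, by group, KI in orange left of WT in dark grey at each age, with bars at group means. Mmp2, Adam12, Adamts9, Adamts10 and Adamts12 step down with age, Adam9 is high only at 44 weeks, and Adam15 and Timp1 are low on most WT arrays at 5 weeks.

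The shorter intervals share the arrays at 5 weeks with each other and those at 2 or 44 weeks with the full span. Between 2 and 5 weeks, 7 members fell and 0 rose in KI, against 8.29% and 5.4% of all genes, and 14 fell and 1 rose in WT, against 21.7% and 12.2%. All 7 of the KI genes were among the 14 in WT: Mmp2, Adam10, Adam12, Adamts1, Adamts9, Adamts12 and Adamts15. Between 5 and 44 weeks, 4 fell and 1 rose in KI, against 8.64% and 8.11% of all genes, and 4 fell and 3 rose in WT, against 8.85% and 11.3%. Mmp2 fell and Adam9 rose in both, and no other member did. The Mmp2 call was lost in 6 of 36 alternatives in KI (adjusted p = 0.0298, limma) and in 10 of 36 in WT (adjusted p = 0.0418). Without WT arrays 7, 8 and 9 the WT counts were 8 lower and 0 higher between 2 and 5 weeks and 3 lower and 1 higher between 5 and 44 weeks. Over all genes that fit, with 2 WT arrays left at 5 weeks, called 991 of 11968 between 2 and 5 weeks, against 4053 with all arrays, and 851 between 5 and 44 weeks, against 2408. Between 2 and 5 weeks calls lost with a difference of like size were those of Adam10 (-0.52 without and -0.54 with the 3 arrays), Timp3 (0.40 and 0.49) and Adamts15 (-0.76 and -0.89). Those of Adamts5 (-0.57 and -1.27), Adamts7 (-0.65 and -1.12), Mmp11 (-0.53 and -0.75) and Mmp14 (-0.75 and -1.20) were lost with smaller differences. Between 5 and 44 weeks Adam23 (-0.68 and -0.66) and Adamts9 (-0.99 and -0.75) lost the call without a smaller difference, as Adam15 and Mmp23 did with one, and Adam12 passed with -2.31 ± 0.54, against -0.88 with all arrays. Leaving out single arrays gave 2 to 8 members between 5 and 44 weeks in KI and 3 to 7 in WT. In the fit without arrays 7, 8 and 9 the counts between 2 and 44 weeks were 12 lower and 3 higher in KI and 15 lower and 2 higher in WT.

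Markers of other cells moved with these falls. Of 4 fibroblast markers, 3 fell in KI and 4 in WT between 2 and 44 weeks, with array means of 5.69 to 6.69 at 44 weeks and 7.52 to 8.33 at 2 weeks in KI, and 5.55 to 6.69 and 7.94 to 8.74 in WT. Of 8 mesangium and smooth muscle markers, 6 fell and 1 rose in each genotype, with array means of 7.39 to 7.74 at 44 weeks and 8.15 to 8.32 at 2 weeks in KI, and 6.83 to 7.75 and 7.83 to 8.58 in WT. Among 7 podocyte markers none fell over that span, while 4 rose in KI and 3 in WT. Of 4 parietal epithelium markers, 2 fell in KI and 3 in WT. Other lists changed over that span too. Of 7 tested leukocyte markers 4 rose and 1 fell in KI and 3 rose and 1 fell in WT, with medians of 0.75 and 0.41. Of 10 loop and distal tubule markers 0 rose in KI and 5 in WT. Between 5 and 44 weeks 0 leukocyte markers rose in KI and 2 in WT, with medians of 0.24 and 0.57. Array means of the leukocyte markers were 5.61 to 5.83 at 44 weeks and 5.05 to 5.40 at 2 weeks in KI, and 4.83 to 5.74 and 4.93 to 5.14 in WT. Of 8 proximal tubule markers 2 rose and 1 fell in KI and 3 rose and 1 fell in WT, and of 10 endothelial markers 1 rose and 2 fell in KI and 2 rose and 2 fell in WT. The part of these cells in the changes of the proteases and inhibitors was not tested.

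Fewer members differed between genotypes than between ages, and Adam15, higher in KI at 5 weeks, was the one that passed at a single age. At 2 weeks 0 of 30 members differed between KI and WT (limma), against 0% of all genes, and 2 members had an unadjusted p under 0.05. At 44 weeks 0 members differed, against 0.0167% of all genes higher and 0.00836% lower, and 1 had an unadjusted p under 0.05. At 5 weeks 1 member was higher and 0 were lower in KI, against 14.3% and 7.75% of all genes, so with all arrays the members' share lay under that of all genes. Without WT array 10 alone 8 members passed and 4077 of 11968 genes, and without WT array 6 alone 3 members and 2451 genes. Without WT arrays 7, 8 and 9 no member passed (0 of 30) and 1 of 11968 genes did, so that fit gives no share to compare. With the tubule covariate 0 members and 14 genes passed. The median difference of the members was -0.14, 0.17 and -0.04 at 2, 5 and 44 weeks, against -0.02, 0.06 and 0.01 over all genes. Averaged over ages, 1 member was higher and 0 lower, against 3.99% and 1.33%. Arrays of KI and WT did not overlap for 0, 2 and 3 members at the 3 ages, against 2.9%, 12% and 2.74% of all genes. The median standard error of a member's difference was 0.25 at 2 and 44 weeks and 0.24 at 5 weeks.

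**Figure D5:**
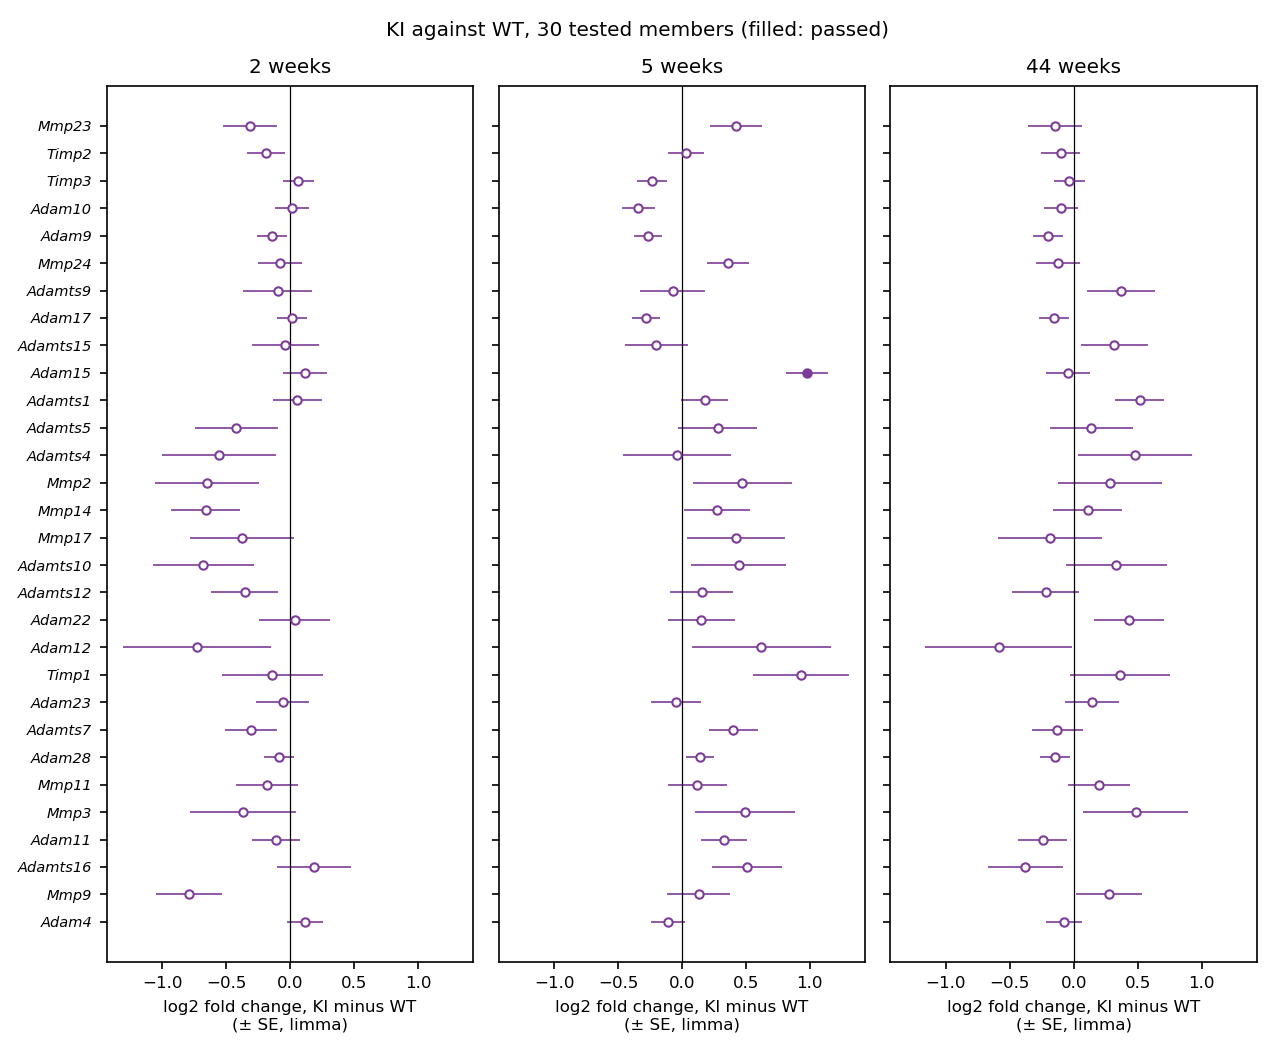
Log2 fold change between KI and WT (horizontal axes, KI minus WT, ± SE from limma) of the 30 tested members at 2, 5 and 44 weeks. Only Adam15 at 5 weeks is filled, at 0.98, and passed the test with all arrays in the fit.

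The member that passed was Adam15, a membrane-bound ADAM with an integrin-binding motif in humans. Its KI values were 8.46, 8.38, 8.43 and 8.13 (2 weeks), 8.23, 7.85, 7.82 and 7.88 (5 weeks) and 7.79, 7.49, 7.63 and 7.73 (44 weeks). WT values were 8.01, 8.23, 8.45 and 8.24 (2 weeks), 6.80, 6.53, 6.97, 6.89 and 7.65 (5 weeks) and 8.03, 7.54, 7.54 and 7.71 (44 weeks). At 5 weeks all 4 KI arrays lay above all 5 WT arrays, and at 2 and 44 weeks the genotypes overlapped. The difference at 5 weeks was 0.98 ± 0.16 (adjusted p = 0.00179, limma), or 1.97-fold. WT arrays 6 to 9 read 6.97 or less, and array 10 read 7.65. Without arrays 7, 8 and 9 the difference was 0.72 ± 0.20 and did not pass (adjusted p = 0.213), and with the tubule marker mean of each array as a covariate it was 0.71 ± 0.21 (adjusted p = 0.149). The 18 tubule markers averaged 9.55 in KI (9.41 to 9.71 over arrays) and 8.62 in WT (7.94 to 9.17) at that age. Several other lists differed in the same direction. Higher in KI were 5 of 10 endothelial, 4 of 7 leukocyte, 4 of 8 mesangium and smooth muscle and 1 of 4 fibroblast markers, and 0 were lower in each of these lists. Also higher were 4 of 8 proximal tubule and 3 of 10 loop and distal tubule markers. Of 4 parietal epithelium markers 1 was higher and 1 lower, with a median of -0.436. Of 7 podocyte markers 1 was higher and 1 lower, with a median of -0.13. The part of these cells in the Adam15 difference was not tested. Averaged over ages the Adam15 difference was 0.35 ± 0.10 (adjusted p = 0.0428), and it held in 13 of 35 alternatives. The genotype effect at 5 weeks differed from that at 2 weeks by 0.86 ± 0.24, and the effect at 44 weeks differed from that at 5 weeks by -1.02 ± 0.24, neither passing (adjusted p = 0.0971 for both). Over all genes 0.0251% had a higher KI effect at 5 than at 2 weeks by that test.

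Adam15 is also the member whose WT course dipped. WT fell by 1.26 between 2 and 5 weeks (SE 0.16, adjusted p = 1.96e-05, limma) and rose by 0.74 between 5 and 44 weeks (SE 0.16, adjusted p = 0.00416). Without arrays 7, 8 and 9 the first difference was -1.01 (adjusted p = 0.00679) and the second 0.48, which did not pass (adjusted p = 0.145). In KI the difference between 44 and 2 weeks, -0.69 ± 0.17, passed (adjusted p = 0.00477). A second probe set of Adam15 gave 0.71 ± 0.14 for KI against WT at 5 weeks (adjusted p = 0.00306), and another, dimmer one gave 0.17 ± 0.12 (adjusted p = 0.293). They were 0.61 and 0.19 without WT arrays 7, 8 and 9, neither passing. For the WT dip, with all arrays, the second probe set gave -0.92 and then 0.41, both passing (adjusted p = 7.13e-05 and 0.0388, limma). The dimmer one gave -0.19 and then 0.08, neither passing (adjusted p = 0.232 and 0.674). Between 2 and 44 weeks the dimmer one gave -0.195 in KI and -0.11 in WT, neither passing.

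Timp1, the soluble inhibitor that many injured tissues induce, showed the next largest gap at 5 weeks without passing. Its KI values were 5.80, 6.18, 5.61 and 5.54 (2 weeks), 6.58, 6.43, 5.91 and 6.39 (5 weeks) and 7.38, 5.23, 5.53 and 5.80 (44 weeks). WT values were 6.23, 5.71, 6.17 and 5.57 (2 weeks), 6.36, 4.77, 4.92, 4.62 and 6.31 (5 weeks) and 5.70, 5.68, 5.31 and 5.80 (44 weeks). At 5 weeks WT fell into 2 arrays at 6.36 and 6.31, numbers 6 and 10, and 3 between 4.62 and 4.92, numbers 7 to 9. The difference was 0.93 ± 0.37 (adjusted p = 0.0764, limma), and without those 3 arrays it was -0.01 ± 0.39 (adjusted p = 0.994). At 44 weeks 1 KI array read 7.38 and the others 5.23 to 5.80.

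Other members gave values that did not pass. Adam10 at 5 weeks was lower in all 4 KI arrays than in all 5 WT arrays, with -0.34 ± 0.13 (adjusted p = 0.0548, limma), and without WT arrays 7, 8 and 9 it was -0.36 ± 0.17 (adjusted p = 0.387). The highest KI array almost equalled the lowest WT array, and dimmer probe sets of Adam10 gave -0.17 and 0.11 with all arrays. Adam17 gave -0.28 ± 0.11 at that age (adjusted p = 0.0709), or -0.23 without those arrays. At 2 weeks Mmp9 gave -0.79 ± 0.26 and Mmp14 -0.66 ± 0.27, each with an adjusted p of 0.893. At 44 weeks Adamts1, Adam22 and Adamts9 were higher on every KI array than on every WT array, by 0.52 ± 0.19, 0.43 and 0.37, with an adjusted p of 0.695 for Adamts1. For Adamts9 WT array 18 read 7.33, and the highest WT array, at 8.15, almost equalled the lowest KI array. Its dimmer probe set gave -0.06. For Adam22 WT array 16 read 5.14 and the other WT arrays 5.87 to 5.91. Differences the other way, also not passing, were -0.38 for Adamts16, -0.20 for Adam9 and -0.15 for Adam17. Adam22 belongs to the ADAMs without an active zinc site and is a receptor for the secreted protein Lgi1 in brain.

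Genes around these proteases were counted from lists of their regulators and substrates. Of 16 tested regulators, 5 fell and 3 rose in KI and 7 fell and 3 rose in WT between 2 and 44 weeks, with a median of -0.17 and -0.29. Over all genes tested, 15.9% fell and 14.3% rose in KI, and 18% fell and 13.6% rose in WT. Thbs2, which controls Mmp2 levels through Lrp1, fell, with -1.74 in KI and -2.42 in WT, and so did Lrp1, the endocytic receptor that clears MMPs, with -0.96 in KI and -1.65 in WT. Tspan14, a tetraspanin partner of Adam10, fell by 0.74 in both. Furin and Bsg fell in both genotypes, and the convertase Pcsk5, the plasminogen activator Plat and Tspan17 rose in both. Reck, a membrane-anchored MMP inhibitor, rose between 5 and 44 weeks by 1.12 ± 0.24 in KI (adjusted p = 0.00408, limma) and by 0.84 ± 0.23 in WT (adjusted p = 0.0147), where it was 1.01 without WT arrays 7, 8 and 9 and did not pass (adjusted p = 0.0556).

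Substrates and relatives went both ways. Of 23 tested genes whose proteins are listed as shed by ADAMs, 3 fell and 3 rose in KI, and 5 fell and 4 rose in WT between 2 and 44 weeks. Over all genes tested, 15.9% fell and 14.3% rose in KI, and 18% fell and 13.6% rose in WT. Il6ra, the interleukin 6 receptor that Adam10 and Adam17 shed, rose by 1.50 in KI and 1.48 in WT. The amyloid precursor App rose by 0.47 in KI and 0.76 in WT. Notch3, also among the smooth muscle markers, fell, with -1.52 in KI and -1.90 in WT, and the tumour necrosis factor receptor Tnfrsf1a fell, with -0.82 in KI and -1.05 in WT. Of 5 tested matrix substrates of ADAMTS enzymes, 3 fell in each genotype: Fn1 with -2.42 in KI and -3.19 in WT, Dcn, also among the fibroblast markers, with -1.55 in KI and -1.75 in WT, and Bgn with -0.86 in KI and -0.97 in WT. Of 6 ADAMTS-like and related genes, 4 fell and 1 rose in KI and 4 fell and 0 rose in WT. Adamtsl1 changed by -1.48 in KI and -2.36 in WT, Adamtsl2 by -1.73 in KI and -1.91 in WT, and the meprin subunit Mep1b by -3.73 in KI and -2.40 in WT.

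Between genotypes at 5 weeks, 1 of 16 tested regulators was higher and 1 lower in KI, against 14.3% and 7.75% of all genes. Rhbdf1, an inactive rhomboid that escorts Adam17 to the cell surface, differed by 1.02 ± 0.18 (adjusted p = 0.00218, limma) and Pcsk5 by -0.54 ± 0.17 (adjusted p = 0.0265). Comp, cut by Adamts7 and Adamts12, was higher by 0.97 ± 0.21, Adamtsl2 by 1.17 ± 0.35 and Notch3 by 1.02 ± 0.35. Without WT arrays 7, 8 and 9 the differences were 0.65 for Rhbdf1, -0.54 for Pcsk5, 1.06 for Comp, 0.30 for Adamtsl2 and 0.30 for Notch3, and none passed.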

How the data were processed

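The deposited values are on a log2 scale, 1 per probe set and array. The method by which the authors summarized and normalized them was not stated in the labels or the file. Per the labels, polysomal RNA went through 1 round of NuGEN WT-Ovation amplification and the Encore Biotin Module. The table holds 45141 probe sets, of which 28898 have 1 gene symbol in the platform annotation, 551 several and 15692 none listed, and 104 are controls. Values run from 1.86 to 13.62 and array medians from 4.82 to 4.99, so nothing was rescaled. Outdated symbols were replaced by way of the Entrez identifier, and 99.3% of symbols had one in the RefSeq gene table. Each gene took its brightest single-symbol probe set, and the dimmest 30% of 17097 genes were left out, which removed members too. A model with 6 group means was fitted to all 25 arrays with limma 3.58.1 in R 4.3.3, and Benjamini-Hochberg adjustment ran over 11968 genes for each comparison. Calls are adjusted p under 0.05 with no minimum fold, ± after a log2 difference is its standard error, and ± after a group mean is the SD. The fit was tested on simulated data. The number of arrays limits the precision. Members, marker lists and pathway lists were chosen with earlier results of these data known. Genes described array by array were the 3 TIMPs, Mmp2, Mmp7, Mmp9, Mmp14, Adam9, Adam10, Adam17, Adamts1 and Adamts5. Mmp23, Adam12, Adam15, Adamts9, Adamts10 and Adamts12 were added from the other called members. Further called members, such as Adamts7 and Adamts15, are given by their differences only. Alternatives covered scaling, filters, probe set choice, variance models, array weights, tubule and sex covariates and left-out arrays.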

Additional observations from a re-analysis of the deposited data

Results flagged for a closer look

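In 7 of 150 combinations of group and member looked at, over 25 members, 1 array stood far from the others of its group by Dixon's test, where chance at 1 in 20 gives 7.5. In KI at 5 weeks, Adam15 read 8.23 on array 23 and 7.82 to 7.88 on the others, all above WT. Adamts1 in KI at 2 weeks read 7.67 on array 20 and 7.87 to 7.91 on the rest. Mmp7 in KI at 44 weeks read 4.61 on array 33 against 4.49 to 4.51, under the limit for testing. Adam17 in WT at 44 weeks read 8.19 on array 15 against 8.48 to 8.52. Adam22 in WT at 44 weeks read 5.14 on array 16 and 5.87 to 5.91 elsewhere. Adamts9 in WT at 44 weeks read 7.33 on array 18, the others 8.08 to 8.15. Mmp24 in WT at 5 weeks read 10.05 on array 10, while the other arrays gave 9.38 to 9.54. Each of the 7 lies on a different array.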

How the results depend on the processing

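Of 67 called changes of single members, 42 passed under all of these alternatives, 25 were lost under at least 1, and none changed direction among 2387 combinations of call and alternative, of which 140 lost the call. The counts of members called moved more, and the cause was not tested. For KI against WT at 5 weeks, where 1 was called, quantile normalization gave 2, centring arrays on their median 4, a 50% filter on dim genes 2, averaging a gene's probe sets 2, a trended and robust prior 2, array weights 12 and the sex covariate 2, while the covariate for tubule markers and the fit without WT arrays 7, 8 and 9 each gave 0. For the average over ages, also 1, quantile normalization gave 0, no filter 0, the mean of probe sets 2, array weights 5, the tubule covariate 0 and leaving out those 3 arrays 0. For WT at 5 against 2 weeks (15), the 50% filter, which keeps 14 members in the fit, and leaving out those arrays each gave 8. For WT at 44 against 5 weeks (7), a fit on only the arrays compared gave 2, the tubule covariate 2 and leaving out those arrays 4. For WT at 44 against 2 weeks (16) the 50% filter gave 9. For KI at 5 against 2 weeks (7) array weights gave 11. For KI at 44 against 5 weeks (5) the 50% filter gave 2, array weights 9 and the fit on only the arrays compared 8. For the interactions, with 0 called, array weights gave 8 for 5 minus 2 weeks and 5 for 44 minus 5 weeks. Array weights also raised the calls over all 11968 genes, to 4821 for KI against WT at 5 weeks and to 2441 and 2041 for those interactions.

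Leaving out 1 array at a time gave 1 to 8 members for KI against WT at 5 weeks, with 8 without WT array 10 and 3 without WT array 6, and 0 to 2 for the average over ages. In WT the counts were 14 to 16 at 5 against 2 weeks, 3 to 7 at 44 against 5 weeks and 14 to 17 at 44 against 2 weeks. In KI they were 6 to 8, 2 to 8 and 12 to 16. Interactions gave 0 to 3 for 5 minus 2 weeks and 0 to 2 for 44 minus 5 weeks. KI against WT at 2 weeks, at 44 weeks and the interaction of 44 minus 2 weeks gave 0 to 0.

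Other probe sets of the called members, added after seeing the data, gave 50 further tests: 28 passed in the same direction, 20 did not pass and 2 ran the other way without passing, both for 1 probe set of Adam10 between 44 and 2 weeks, at 0.196 in KI and 0.203 in WT. No paired analysis was possible because the numbers in the sample titles differ between all arrays. A member near 4.603 log2 units lies at the dim end, where a difference is compressed, and 31 members fell below it.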

Other observations

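The 5 probe sets that carry the symbol Timp2 gave different values between genotypes. At 5 weeks the brightest, described above, gave 0.03 for KI against WT, and the second 0.62 (adjusted p = 0.0606, limma over single probe sets). The third gave -0.65 ± 0.20 (adjusted p = 0.0288), and the dimmest, with a mean of 4.66, gave -0.23 (adjusted p = 0.292). The fourth, with a mean of 8.28, read 7.42, 7.27, 7.44 and 7.40 in KI, against 8.47, 9.06, 9.14, 9.12 and 7.71 in WT at 5 weeks. No KI array reached the WT range, and the difference was -1.32 ± 0.28 (adjusted p = 0.00427). Without WT arrays 7, 8 and 9 none of the 5 passed, with 0.05, 0.22, -0.41, -0.71 and -0.14 from the brightest to the dimmest. The fourth rose between 2 and 44 weeks by 1.32 in KI (adjusted p = 0.00164) and by 0.95 in WT (adjusted p = 0.0151). In the fit without WT arrays 7, 8 and 9 the third rose over that span too. It gave 0.845 in KI (adjusted p = 0.00631, limma) and 0.698 in WT (adjusted p = 0.0184), while the brightest, the second and the dimmest did not pass. Which transcripts each probe set reads was not examined. A second probe set of Adam17 gave -0.63 for KI against WT at 5 weeks (adjusted p = 0.0182), where the main one gave -0.28 and did not pass, and without WT arrays 7, 8 and 9 it gave -0.18, not passing.

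With no filter on dim genes, 7 members under the limit were called in an age comparison (limma, over 17097 genes). Between 2 and 44 weeks they were 3 of 31 in KI and 5 of 31 in WT. Over all genes in that fit, 3825 of 17097 were called in KI and 4131 in WT. Those genes include the 11968 above the limit, so the shares do not compare like with like. The share among dim genes alone was not computed. Adamts8, a proteoglycanase, fell between 2 and 44 weeks by 0.66 in KI (adjusted p = 0.0283) and by 1.28 in WT (adjusted p = 0.0001). Adam5, known from testis, fell by 0.63 in KI and by 0.75 in WT. Mmp16, a membrane-type MMP, fell by 0.42 in KI, and Adam21 fell by 0.37 in WT. Adamts6, linked to fibrillin like Adamts10, rose by 0.67 in WT, and macrophage elastase, Mmp12, rose by 0.50 in WT. Adam8, known from leukocytes, rose by 0.31 in WT between 2 and 5 weeks. These genes were named after their values were seen.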
